A study of Mus musculus with 12 samples.

Results

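A set of 9 genes commonly used as markers of stellate cells, pericytes and fibroblasts were followed in the bulk islet transcriptome: Pdgfra, Pdgfrb, Lum, Dcn, Thy1, Rgs5, Cspg4, Fbln2 and Bgn. They were taken as the rows of the count table whose Ensembl identifier maps to these 9 symbols, out of 37991 genes in all, and every one passed the filter on low counts, as did 15961 genes in total. RNA had been sequenced from pancreatic islets of male C57BL/6 mice in 4 groups of 3 libraries. Tg7 mice carry a transgene that overexpresses the microRNA miR-7a2 in β-cells, and Wt mice were their littermates without it. Both were taken at 2w of age, when Tg7 mice are still normoglycaemic, and at 12w, when they are diabetic. The Tg7 line was kept by crossing to C57BL/6J, and each library was a pool of islets from at least 3 animals, so the p values below measure the spread between pools.

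Pericytes sit on the outside of capillaries, share a basement membrane with the endothelium, and are recruited by endothelial PDGF-B acting on their receptor PDGFRβ. Pancreatic stellate cells and fibroblasts lie around ducts, vessels and islets, respond to PDGF-A and PDGF-B, and lay down collagen and the proteoglycans that organise it. In the healthy islet these cells are a small minority beside the endocrine cells, and fibroblast-like activation with matrix deposition is the hallmark of fibrosis. In islet RNA, fewer cells of a type and less RNA per cell cannot be told apart, nor can the cell that made a transcript be read from it.

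In Tg7 islets at 12w, 8 of the 9 genes were upregulated over Wt, by between 2.49-fold for Cspg4 and 14.0-fold for Lum, with Rgs5 as the exception. At 2w, 5 of the 9 were upregulated: Pdgfra, Lum, Dcn, Thy1 and Bgn. None was downregulated at either age. Of all genes tested, 12.5% were upregulated at 12w and 6.07% at 2w. Fbln2 and Bgn are among the mesenchymal genes that the study picked out as regulated in these same libraries, so their calls are no independent evidence of that direction. All 9 genes were chosen with earlier results of these data known. None of the 9 results is therefore independent of the study, which tested the same libraries.

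Total counts ranged from 11610697 to 17515758 per library. The insulin genes took 10.1% to 15.4% of counts in 2w Wt islets and 1.84% to 4.09% in 2w Tg7 islets. At 12w they took 14.8% to 30.0% in Wt and 8.08% to 8.24% in Tg7 islets, and replicate 4 was the lowest of the Wt libraries. Levels are in CPM, the count scaled to 1e6 reads of a library corrected by its TMM factor (0.684 to 1.19), and adjusted p values come from edgeR's quasi-likelihood test with a threshold of 0.05. The first Tg7 library at 2w stood apart in markers of lymphoid tissue. Its summed level of 12 T and NK lymphocyte genes was 33.3 CPM, against 2.27 to 7.14 CPM in the other 11 libraries. Its 7 B lymphocyte genes summed to 26.1 CPM against 2.26 to 10.8 CPM elsewhere. Madcam1, the addressin of lymph node and mucosal venules, was at 40.9 CPM there and between 0 and 0.996 CPM in the others. It made up most of the 42.7 CPM to which 4 lymph node stromal genes summed there. The rest were low there, Cxcl13 at 1.28, Ccl19 at 0.427 and Ccl21a at 0.107 CPM. Cxcl13 was at 0.974 CPM in Tg7 2w replicate 2, and Ccl19 at 0.677 and 0.996 CPM in Tg7 12w replicates 1 and 2. Results of the 9 genes and counts of their marker lists at 2w are therefore also given without the first Tg7 library at 2w.

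**Figure D1:**
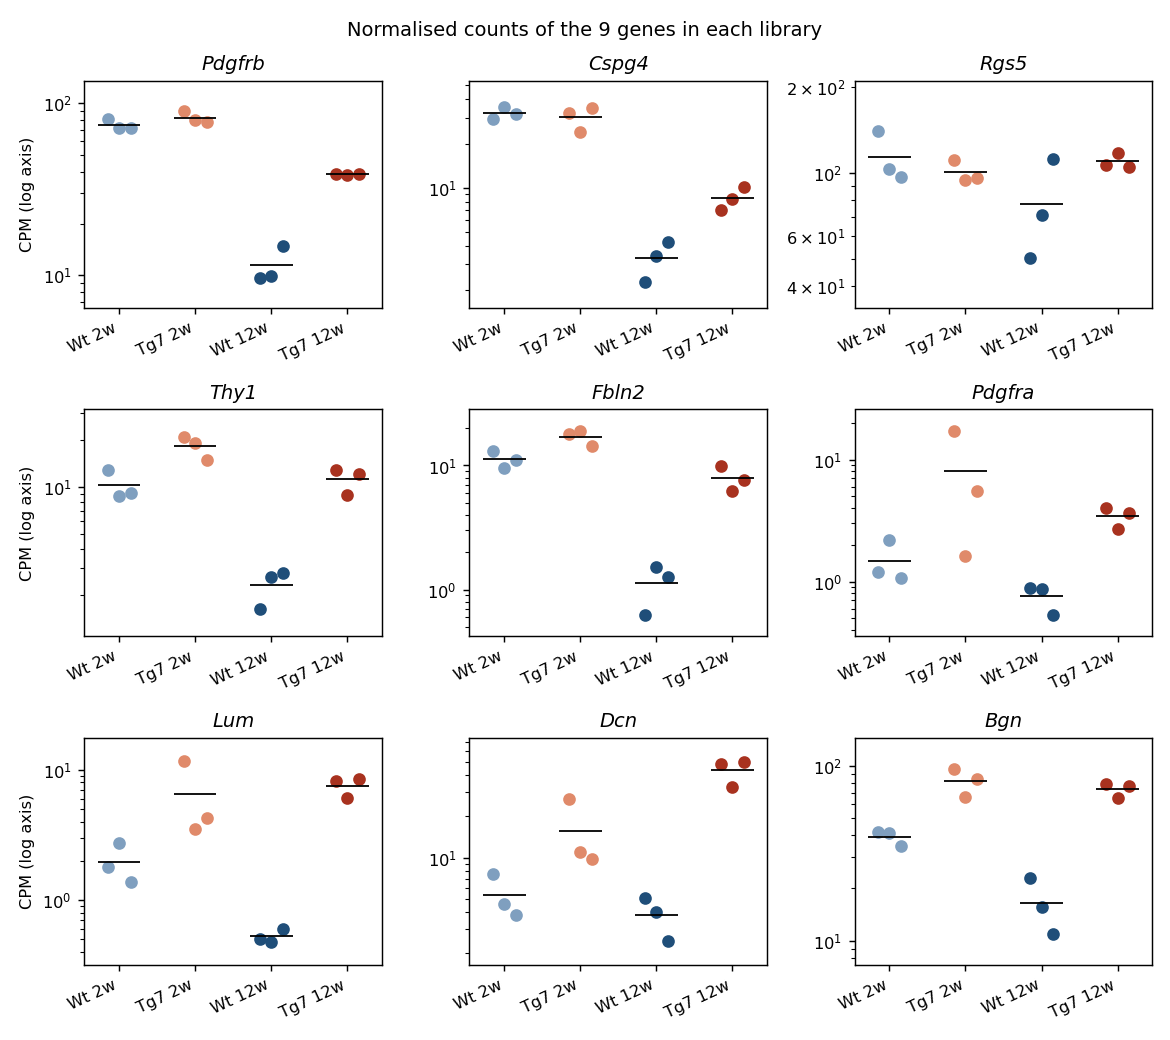
CPM on a logarithmic axis for each of the 9 genes in the 12 libraries, one panel per gene with its own scale; points are libraries in order of replicate number and black lines are group means. The 12w Wt libraries are the lowest of all for Pdgfrb, Cspg4, Thy1, Fbln2, Bgn, Pdgfra and Lum, whereas the Rgs5 libraries of the 4 groups overlap.

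Pdgfrb (chr18:61204804-61244715 in mm9), the receptor tyrosine kinase that binds PDGF-B and marks pericytes and mesenchymal cells, was the most abundant of the receptors. Its level was 81.4, 71.7 and 71.7 CPM in 2w Wt islets and 89.7, 79.8 and 78.2 CPM in 2w Tg7 islets, so the groups overlapped. At 12w the Wt libraries were at 9.71, 9.92 and 14.7 CPM, and all Tg7 libraries were near 39 CPM (39.0, 38.4 and 38.8). The log2 fold change of Tg7 over Wt was 0.14 (SE 0.14, adjusted p = 0.574) at 2w and 1.74 (SE 0.15, adjusted p = 4.48e-06) at 12w, or 3.35-fold. The call at 12w held with each of the 12 libraries left out in turn.

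Pdgfra (chr5:75548316-75594229), the receptor for PDGF-A that marks fibroblasts and resident mesenchymal progenitors, was the lowest of the 9 per length of exon in every group. In CPM it stood at 1.19, 2.21 and 1.06 CPM in 2w Wt islets and at 17.1, 1.62 and 5.56 CPM in 2w Tg7 islets. Replicate 1 was far above the other Tg7 libraries, and the lowest of them lay inside the Wt range. At 12w it was 0.882, 0.873 and 0.533 CPM in Wt and 4.0, 2.71 and 3.66 CPM in Tg7 islets, without overlap. These Wt values rest on 7, 11 and 8 reads. The log2 fold change was 2.46 (SE 0.63, adjusted p = 0.0246) at 2w and 2.20 (SE 0.70, adjusted p = 0.0356) at 12w. Neither call was robust to the loss of 1 library. At 2w it was lost without Wt replicate 1 (adjusted p = 0.0997), Wt replicate 3 (0.117) or Tg7 replicate 1 (0.124, log2 fold change 1.31). At 12w it was lost without any one of the 6 libraries of that age, with adjusted p between 0.0563 and 0.0997 and log2 fold changes from 1.97 to 2.35.

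Since the transgene makes a microRNA, the mature miR-7a-5p (RefSeq) is shown with its seed, bases 2 to 8, in capitals, above the one match to that seed in the annotated 3′ UTRs of the 9 genes. It lies in the last exon of Pdgfra on the plus strand, at chr5:75594109-75594130 of mm9, and the capitals there mark the complement of the seed.
miR-7a-5p: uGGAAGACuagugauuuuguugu
Pdgfra: tactccataggaaggGTCTTCC
The other 8 genes held no such 7-base match in their longest annotated 3′ UTR, and of 14406 tested genes with an annotated 3′ UTR 13.2% held one. A match of this kind is a description of the letters and does not show that the site is used.

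Cspg4 (chr9:56712911-56747677) encodes the proteoglycan NG2, a surface marker of pericytes. It was at 29.5, 35.6 and 32.0 CPM in 2w Wt and at 32.3, 23.8 and 35.1 CPM in 2w Tg7 islets, with overlapping groups (log2 fold change −0.09, SE 0.20, adjusted p = 0.828). At 12w it was at 2.27, 3.41 and 4.27 CPM in Wt and at 6.99, 8.41 and 10.1 CPM in Tg7 islets. Every Tg7 library thus lay above every Wt library at 12w (log2 fold change 1.32, SE 0.23, adjusted p = 0.00119).

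Rgs5 (chr1:171585632-171625944), a GTPase-activating protein that dampens G protein signalling and is among the strongest transcripts of capillary pericytes, was the one gene without a call at either age. Its level was 140, 103 and 96.3 CPM in 2w Wt and 111, 94.5 and 96.0 CPM in 2w Tg7 islets. At 12w the Wt libraries spread from 50.4 CPM in replicate 1 over 71.2 CPM in replicate 2 to 111 CPM in replicate 4, and the Tg7 libraries were at 106, 117 and 105 CPM. The log2 fold change was −0.17 (SE 0.22, adjusted p = 0.677) at 2w and 0.49 (SE 0.22, adjusted p = 0.134) at 12w. The 12w value depended on Wt replicate 4, the Wt library of that age with the lowest insulin share. Without it the log2 fold change was 0.85 (adjusted p = 0.00321), and with library size in place of TMM factors, which moved the median of all genes from −0.01 to 0.43, it was 0.90 (adjusted p = 0.0191). With upper-quartile factors, under which that median was 0.075, Rgs5 was also called (0.60, adjusted p = 0.0478).

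Thy1 (chr9:43851467-43856662), the glycolipid-anchored surface protein CD90 of fibroblasts, and also of neurons and T cells, was at 12.9, 8.77 and 9.10 CPM in 2w Wt and at 20.9, 19.1 and 14.9 CPM in 2w Tg7 islets. The 12w libraries were at 1.64, 2.62 and 2.80 CPM in Wt and at 12.9, 8.80 and 12.0 CPM in Tg7 islets. The groups were separate at both ages. The log2 fold change was 0.83 (SE 0.23, adjusted p = 0.0348) at 2w and 2.22 (SE 0.26, adjusted p = 4.85e-05) at 12w. The call at 2w was lost without Wt 2w replicate 2 (adjusted p = 0.121) or 3 (0.151), Tg7 2w replicate 1 (0.0908) or 2 (0.0830), or Tg7 12w replicate 3 (0.0527), with log2 fold changes from 0.73 to 0.83. Of 8 neuronal markers, 6 were upregulated in 12w Tg7 islets, with summed levels of 123 to 161 CPM against 73.7 to 108 CPM in Wt. Their part in the Thy1 result was not tested.

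Lum and Dcn encode lumican and decorin, small leucine-rich proteoglycans that bind collagen fibrils and set their spacing, and they are neighbours on the plus strand of chromosome 10 (chr10:97028135-97035337 and chr10:96942245-96980777). Lum was at 1.78, 2.73 and 1.38 CPM in 2w Wt and at 11.7, 3.51 and 4.27 CPM in 2w Tg7 islets. Levels at 12w were 0.504, 0.476 and 0.600 CPM in Wt, from 4, 6 and 9 reads, and 8.18, 6.03 and 8.47 CPM in Tg7 islets. No Tg7 library overlapped Wt at either age, with log2 fold changes of 1.74 (SE 0.43, adjusted p = 0.0200) and 3.81 (SE 0.51, adjusted p = 1.41e-04). Dcn was at 7.54, 4.57 and 3.78 CPM in 2w Wt and at 26.6, 10.9 and 9.79 CPM in 2w Tg7 islets. The 12w values were 5.04, 3.97 and 2.47 CPM in Wt and 48.4, 32.9 and 49.9 CPM in Tg7 islets. These groups were also separate, with log2 fold changes of 1.58 (SE 0.38, adjusted p = 0.0181) and 3.55 (SE 0.41, adjusted p = 4.44e-05), the latter 11.7-fold. The next leucine-rich proteoglycan genes along the same chromosome, Kera and Epyc, had 0 counts in all 12 libraries, so the increase did not extend to detectable reads of the whole cluster.

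Bgn (chrX:70728941-70741272) encodes biglycan, another small leucine-rich proteoglycan, which binds collagen and TGFβ. It was at 41.7, 41.1 and 34.8 CPM in 2w Wt and at 95.8, 66.1 and 84.3 CPM in 2w Tg7 islets. In the older animals it was at 22.7, 15.6 and 10.9 CPM in Wt and at 78.2, 65.5 and 76.8 CPM in Tg7 islets. The groups were far apart at both ages, with log2 fold changes of 1.07 (SE 0.21, adjusted p = 0.00512) and 2.18 (SE 0.22, adjusted p = 1.30e-05). It was the one gene whose 2w call held with every library left out, with a highest adjusted p of 0.0375.

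Fbln2 (chr6:91162449-91222534) encodes fibulin-2, a glycoprotein that links basement membranes and elastic fibres. It was at 13.2, 9.50 and 11 CPM in 2w Wt and at 17.9, 18.8 and 14.4 CPM in 2w Tg7 islets. Although these libraries did not overlap, the log2 fold change of 0.60 (SE 0.24) had an adjusted p of 0.124. At 12w it was at 0.630, 1.51 and 1.27 CPM in Wt and at 9.92, 6.20 and 7.61 CPM in Tg7, or 6.65-fold higher (log2 fold change 2.73, SE 0.30, adjusted p = 2.40e-05). No annotated gene of the mm9 build overlaps any of the 9 genes.

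The lymphoid library weighed on the 2w result. Without Tg7 2w replicate 1, 1 of the 9 genes was called at 2w, Bgn, at a log2 fold change of 0.94 (adjusted p = 0.0194). Of all genes, 10.4% were called without this library and 10.6% with it, in either direction. Lum then stood at 1.0 (adjusted p = 0.0801), Dcn at 0.97 (adjusted p = 0.0655), Thy1 at 0.73 (adjusted p = 0.0908) and Pdgfra at 1.31 (adjusted p = 0.124). In this library all 9 genes lay above their group mean, and it held the highest Pdgfra, Pdgfrb, Lum, Dcn, Thy1 and Bgn levels of the 2w islets. Its sum over 24 fibroblast genes, 938 CPM, was also the highest of the 12 libraries (46.5 to 624 CPM in the others). The count was also 1 without Wt 2w replicate 3, where Lum (adjusted p = 0.106) and Dcn (0.0997) were lost too, but there the calls over all genes fell to 4.59%. It was 3 without Wt 2w replicate 1 or 2, with 5.54% and 6.29% of all genes called. Lum was lost without replicate 1 (0.0808) and Dcn without replicate 2 (0.0697). What lymphoid tissue contributed to these levels was not tested. At 12w, where no library stood apart in this way, 7 or 8 of the 9 genes were called whichever library was left out.

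**Figure D2:**
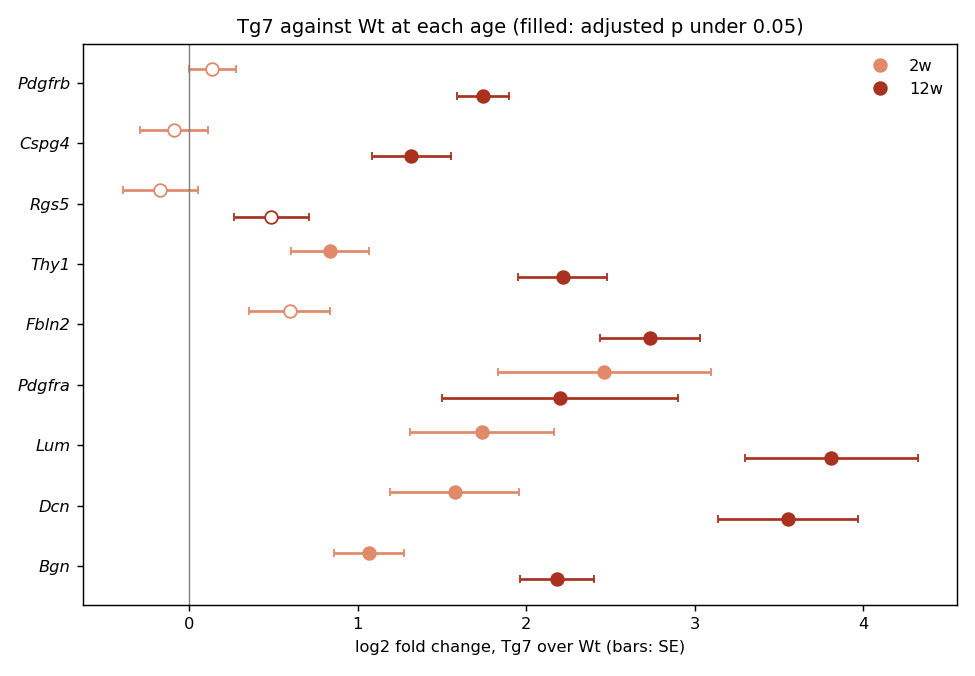
Log2 fold change of Tg7 over Wt islets for each of the 9 genes at 2w (orange) and 12w (red), with standard errors as bars; filled points have an adjusted p under 0.05. All 9 genes lie to the right of 0 at 12w, and Pdgfrb, Cspg4 and Rgs5 lie near 0 at 2w.

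Whether the effect of the transgene differed between the ages was tested as the difference of the 2 log2 fold changes. It was larger at 12w for 3 of the 9 genes, while 0.871% of all genes had a larger value at 12w by the same test. The difference was 1.60 for Pdgfrb (SE 0.21, adjusted p = 0.00176), 2.14 for Fbln2 (SE 0.38, adjusted p = 0.0145) and 1.40 for Cspg4 (SE 0.31, adjusted p = 0.0437). The Pdgfrb and Fbln2 calls held with every library left out. The Cspg4 call held only without Tg7 2w replicate 3 or Wt 12w replicate 4, and without any one of the other 10 libraries its adjusted p lay between 0.0552 and 0.131, at differences from 1.21 to 1.56. The other 6 did not pass. With all libraries the difference was 2.07 for Lum (SE 0.67, adjusted p = 0.171), 1.98 for Dcn (SE 0.55, adjusted p = 0.112), 1.12 for Bgn (SE 0.30, adjusted p = 0.0924), 1.38 for Thy1 (0.0766), 0.66 for Rgs5 (0.361) and −0.26 for Pdgfra (0.936). Without the lymphoid library Lum (2.83, adjusted p = 0.0191) and Dcn (2.61, adjusted p = 0.0148) were called, and the sign of Pdgfra turned (0.91, adjusted p = 0.649). Thy1 (1.53, adjusted p = 0.0399) and Rgs5 (1.02, adjusted p = 0.0268) were called without Wt 12w replicate 4, and Bgn (1.38, adjusted p = 0.0237) without Wt 12w replicate 1. DESeq2 called 6 of the 9, as did the fits with library size alone, without the filter on low counts or with the replicate number as a block. The share of all genes called, in either direction, rose too, from 1.18% in the main fit. It was 3.57% with DESeq2, 2.17% with library size alone, 1.75% without the filter and 3.15% with the block.

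The RefSeq promoters of a pair of genes with a larger effect at 12w, and of Rgs5, whose difference did not pass the test, are printed for comparison (GRCm38.p6, plus strand, the 250 bases before the start of the gene). Rgs5 is at chr1:169655251-169655500, Fbln2 at chr6:91212514-91212763 and Cspg4 at chr9:56864854-56865103 of that build. Capitals mark the GC box GGGCGG, on this strand or the other.
Rgs5: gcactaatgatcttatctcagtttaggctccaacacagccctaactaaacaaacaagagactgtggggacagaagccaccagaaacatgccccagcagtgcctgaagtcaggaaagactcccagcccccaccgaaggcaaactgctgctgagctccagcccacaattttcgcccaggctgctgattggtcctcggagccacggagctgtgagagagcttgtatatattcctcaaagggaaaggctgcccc
Fbln2: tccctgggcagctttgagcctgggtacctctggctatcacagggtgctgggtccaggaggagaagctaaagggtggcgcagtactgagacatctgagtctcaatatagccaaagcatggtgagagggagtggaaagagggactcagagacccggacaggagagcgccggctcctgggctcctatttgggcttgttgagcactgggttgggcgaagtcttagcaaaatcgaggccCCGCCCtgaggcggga
Cspg4: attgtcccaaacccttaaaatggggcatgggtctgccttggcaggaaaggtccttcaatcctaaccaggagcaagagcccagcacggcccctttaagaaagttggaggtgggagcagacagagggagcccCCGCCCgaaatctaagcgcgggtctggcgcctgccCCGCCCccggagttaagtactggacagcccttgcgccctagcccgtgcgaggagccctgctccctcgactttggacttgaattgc
Of the 9 genes, 5 had a promoter in the table: these 3, Pdgfra and Bgn. The GC box occurred on either strand in the windows of Bgn, Cspg4 and Fbln2 and in 32.7% of 32851 promoters. The TATA box TATAAA (12.4% of promoters), the AP-1 site TGANTCA (6.75%), the TEAD core CATTCC (12.6%) and the CArG box of serum response factor (1.47%), searched on both strands, were in none of the 5 windows. As the GC box alone was found, no matches of different motifs overlapped.

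Between the 2 ages of Wt islets, all 9 log2 fold changes of 12w over 2w were negative. From 2w to 12w, 6 of the 9 genes decreased in Wt islets, against 7.91% of all genes. Cspg4 and Fbln2 were 9.47-fold and 9.45-fold lower at 12w (log2 fold change −3.24 for both, adjusted p = 1.18e-06 and 1.04e-05). Pdgfrb was 6.48-fold lower (−2.70, SE 0.16, adjusted p = 2.63e-07), Thy1 4.24-fold lower (−2.09, SE 0.26, adjusted p = 1.54e-04) and Bgn 2.42-fold lower (−1.28, SE 0.22, adjusted p = 0.00148). Lum was 3.62-fold lower (−1.85, SE 0.53, adjusted p = 0.0291), a call that was lost without Wt replicate 1 or 2 of 2w or Wt replicate 1 or 2 of 12w (adjusted p between 0.0505 and 0.111, log2 fold changes from −1.92 to −1.56). The other 3 did not pass the test, with log2 fold changes of −0.97 for Pdgfra (SE 0.73, adjusted p = 0.390), −0.51 for Dcn (SE 0.42, adjusted p = 0.436) and −0.54 for Rgs5 (SE 0.22, adjusted p = 0.121). Rgs5 was called, at −0.89 (adjusted p = 0.00275), without Wt 12w replicate 4. The same 12w Wt libraries are the reference of the Tg7 effect at 12w, so that the fall with age and the larger Tg7 effect at 12w share data.

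In Tg7 islets Dcn increased 2.77-fold from 2w to 12w (log2 fold change 1.47, SE 0.36, adjusted p = 0.0155), where 7.02% of all genes increased. This call was lost without Tg7 2w replicate 2 or 3 or Tg7 12w replicate 1 or 3 (adjusted p between 0.0600 and 0.0632), and the log2 fold change was 2.07 (adjusted p = 0.00145) without the lymphoid library. Cspg4 (−1.84, adjusted p = 1.03e-04), Pdgfrb (−1.09, adjusted p = 2.97e-04) and Fbln2 (−1.10, adjusted p = 0.00825) decreased in Tg7 islets, where 6.01% of all genes decreased. Fbln2 had an adjusted p of 0.0509, at −0.95, without Tg7 12w replicate 2. The other 5 genes gave −1.23 for Pdgfra (adjusted p = 0.196), −0.71 for Thy1 (0.0584), −0.16 for Bgn (0.652), 0.12 for Rgs5 (0.761) and 0.22 for Lum (0.765). Thy1 had an adjusted p of 0.0378 without Wt 12w replicate 1 and of 0.0354 without Wt 12w replicate 4, and Pdgfra one of 0.0268, at −1.71, without Tg7 2w replicate 2.

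Set against the 2w Wt islets, 12w Tg7 islets were higher for 3 of the 9 genes and lower for 2. This comparison, which changes age and genotype together, was added after the values had been seen. The 3 small leucine-rich proteoglycans were higher in 12w Tg7 islets, Dcn 8.25-fold (log2 fold change 3.04, SE 0.39, adjusted p = 8.47e-05), Lum 3.88-fold (1.95, SE 0.43, adjusted p = 0.00470) and Bgn 1.87-fold (0.91, SE 0.21, adjusted p = 0.00590). The pericyte surface genes Cspg4 and Pdgfrb were lower, 3.80-fold (−1.93, SE 0.21, adjusted p = 2.43e-05) and 1.94-fold (−0.95, SE 0.14, adjusted p = 3.06e-04). Of all genes, 13.5% were higher and 11.6% lower in this comparison. The other 4 did not pass: 1.23 for Pdgfra (SE 0.63, adjusted p = 0.172), 0.13 for Thy1 (SE 0.23, adjusted p = 0.717), −0.05 for Rgs5 (SE 0.22, adjusted p = 0.899) and −0.51 for Fbln2 (SE 0.24, adjusted p = 0.144). All 5 calls held with each library left out.

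**Figure D3:**
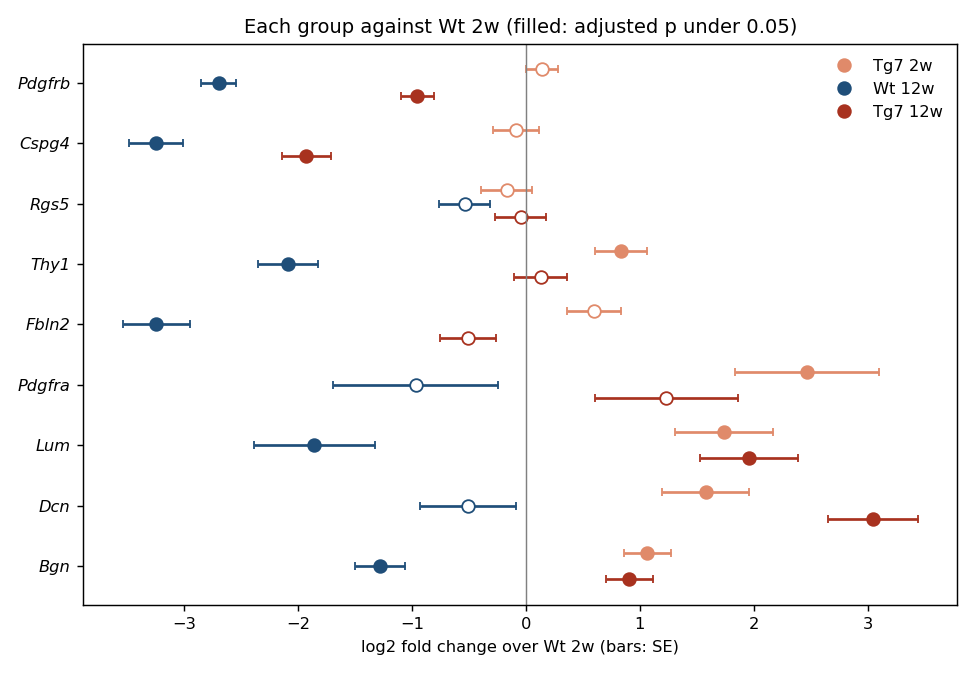
Log2 fold change of 2w Tg7 (orange), 12w Wt (blue) and 12w Tg7 islets (red) over 2w Wt islets, which are the 0 line and are shared by the 3 comparisons; bars are standard errors and filled points have an adjusted p under 0.05. The red points lie right of 0 for Lum, Dcn and Bgn and left of 0 for Pdgfrb and Cspg4, and the blue points are all left of 0.

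Divided by the length of their exons, the levels could be ordered between genes (CPM per kilobase, mean ± SD, n = 3). In 2w Wt islets Rgs5 led at 24.8 ± 5.11, followed by Pdgfrb at 13.7 ± 1.02, Bgn at 11 ± 1.07, Thy1 at 5.91 ± 1.32, Cspg4 at 4.02 ± 0.380, Dcn at 2.73 ± 1.02, Fbln2 at 1.91 ± 0.314, Lum at 0.946 ± 0.332 and Pdgfra at 0.221 ± 0.0934. Dcn and Fbln2 were within the larger of their SDs of each other. In 12w Tg7 islets Rgs5 (24.1 ± 1.53), Dcn (22.6 ± 4.86) and Bgn (20.6 ± 1.95) made up the top, and all 3 lay within the SD of Dcn. Pdgfrb (7.07 ± 0.0528) and Thy1 (6.47 ± 1.23) came next and also differed by less than 1 SD, then Lum (3.64 ± 0.641), Fbln2 (1.35 ± 0.320), Cspg4 (1.06 ± 0.195) and Pdgfra (0.513 ± 0.0994), with Fbln2 and Cspg4 also within 1 SD. Dcn had thus passed Pdgfrb, Thy1 and Cspg4, whose means all lay above its own in young Wt islets. In Wt 2w replicate 1, however, Dcn (3.89) was already above Cspg4 (3.66). In 2w Tg7 islets Bgn (23.0 ± 4.21) and Rgs5 (22.1 ± 2.00) were level at the top, Pdgfrb (15.1 ± 1.14), Thy1 (10.6 ± 1.78) and Dcn (8.14 ± 4.86) followed, and Cspg4 (3.78 ± 0.730), Lum (3.13 ± 2.18), Fbln2 (2.90 ± 0.401) and Pdgfra (1.20 ± 1.20) were the lowest. The steps from Bgn to Rgs5, from Thy1 to Dcn, from Dcn to Cspg4, from Cspg4 to Lum and from Lum to Fbln2 were within the larger SD of the neighbours. In 12w Wt islets Rgs5 stood alone at 17.1 ± 6.81, ahead of Bgn at 4.61 ± 1.66, Pdgfrb at 2.09 ± 0.519, Dcn at 1.98 ± 0.668 and Thy1 at 1.36 ± 0.360. Cspg4 (0.412 ± 0.125), Lum (0.254 ± 0.0313), Fbln2 (0.193 ± 0.0772) and Pdgfra (0.113 ± 0.0295) were lowest, and neighbours within 1 SD were Pdgfrb and Dcn, Dcn and Thy1, and Lum and Fbln2.

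The 9 genes did not move as a single block from library to library. Over the 12 libraries the Pearson correlation of log2 CPM between 2 of them had a median of 0.69 over 36 pairs, from 0.09 for Dcn and Cspg4 to 0.98 for Thy1 and Fbln2. As the groups differ, these values mostly restate the group means. With the group means removed, the median was 0.28. High values then joined Pdgfrb with Rgs5 (0.90), Thy1 with Fbln2 (0.90) and Thy1 with Rgs5 (0.68) on one hand, and Pdgfra with Lum (0.87), Dcn with Bgn (0.74), Pdgfra with Dcn (0.64) and Lum with Dcn (0.63) on the other. Between these sets Bgn was negative with Rgs5 (−0.62), Pdgfrb (−0.55), Fbln2 (−0.45), Cspg4 (−0.43) and Thy1 (−0.32). In the 12w Wt islets, for example, replicate 4 held the highest Rgs5 and Pdgfrb and the lowest Bgn and Dcn of its group. The 12 points share library depth and scaling within each library, the lymphoid library is one of them, and no test was made.

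**Figure D4:**
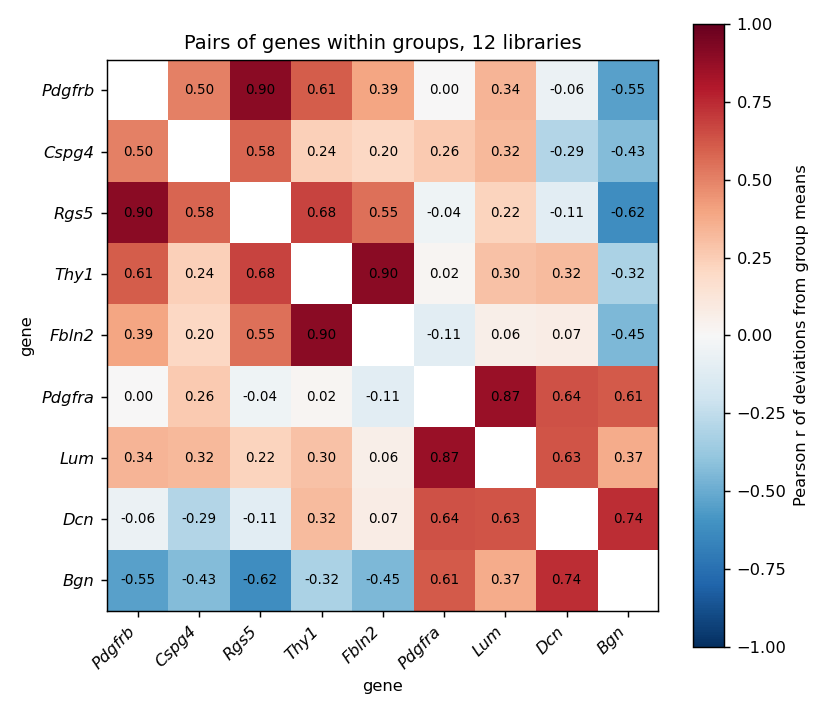
Pearson correlation between each pair of the 9 genes over 12 libraries after the mean of each group was subtracted from log2 CPM; red is positive, blue negative, and each cell prints its value. A positive corner from Pdgfrb to Fbln2 and another from Pdgfra to Bgn stand out; between them Bgn is negative with all 5 genes of the first corner, while Lum is weakly positive with them (0.06 to 0.34).

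The genes whose profile over the 12 libraries was most like the average of the 9 (Pearson correlation of log2 CPM with the mean of their z scores) were Pde1b (0.982), Col1a2 (0.979), Col1a1 (0.972), Sox18 (0.972), Col3a1 (0.970), Col6a2 (0.965), Mmp15 (0.964), Phlda1 (0.964), Epas1 (0.963) and Prrx1 (0.961). The 4 groups with different means underlie each of these values, so they describe a shared order of groups. Col1a1, Col1a2, Col3a1 and Col6a2 encode fibrillar and microfibrillar collagen chains, Prrx1 is a homeobox factor of mesenchyme, and Sox18 and Epas1 are transcription factors known from endothelium. Col3a1, for instance, averaged 98.7 CPM in Wt and 176 CPM in Tg7 islets at 2w, and 7.72 CPM in Wt and 86.2 CPM in Tg7 islets at 12w. Epas1 averaged 126, 148, 57.6 and 154 CPM in the same order.

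Other genes of the same cells were read from lists of their markers. Of 24 fibroblast genes, all tested, 19 were upregulated and 1 downregulated in 12w Tg7 islets, with a median log2 fold change of 2.27 against −0.01 over all genes. The largest fitted changes were those of Lox, which crosslinks collagen, and Mfap5, a microfibril protein (4.28, adjusted p = 0.0147). Lox had 0 counts in Wt and 41 in Tg7 islets of 12w, and was at least 9.11-fold higher against a floor of 3 counts over the Wt group. The lowest of those called were Loxl1 (1.20, adjusted p = 0.00489) and the muscle protein gene Pdlim3, which decreased (−1.70, adjusted p = 0.0318). At 2w, 9 of the 24 were upregulated and none downregulated, with a median of 0.93 against 0.03 over all genes. They ranged from the mucin-like Pdpn (2.30, adjusted p = 0.0455) and fibronectin Fn1 (1.99, adjusted p = 0.0447) to Col1a2 (0.88, adjusted p = 0.0121) and Col3a1 (0.83, adjusted p = 0.0153). Without the lymphoid library 6 were called, with a median of 0.74, and neither Fn1 (0.40, adjusted p = 0.367) nor Pdpn (0.94, adjusted p = 0.325) was among them. Over the 12 libraries left out in turn, the call of Fn1 was lost with 9 and that of Pdpn with 7. The 2w calls of Col1a2 and Col3a1 were lost without Wt 2w replicate 3 (adjusted p = 0.0762 and 0.0922), and that of Col3a1 also without Wt 2w replicate 2 (0.0571). At 12w Mfap5 was lost without Tg7 replicate 2 (3.88, adjusted p = 0.0509), and Pdlim3 without Tg7 replicate 1 or 2 or Wt replicate 2 (adjusted p from 0.0880 to 0.148).

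Of 21 pericyte and mural genes 18 were tested, and 12 were upregulated and none downregulated in 12w Tg7 islets, with a median log2 fold change of 1.27. Vitronectin, Vtn (2.59, adjusted p = 8.06e-06), and the forkhead factor Foxs1 (2.28, adjusted p = 4.97e-04) were the highest, and the endothelin receptor Ednra (0.96, adjusted p = 0.00521) and the potassium channel subunit Abcc9 (0.91, adjusted p = 0.0120) the lowest of those called. At 2w the median was 0.17 and 2 were upregulated, the guanylate cyclase subunit Gucy1a3 (0.87, adjusted p = 0.00184) and the aminopeptidase Anpep (0.68, adjusted p = 0.00476), and 2 were called without the lymphoid library too. Of the genes named here the call of Abcc9 alone could be lost, without Tg7 12w replicate 3 (0.83, adjusted p = 0.0506). The pericyte list thus had most of its calls at 12w, as Pdgfrb, Cspg4 and the fibroblast list did. The effect was called larger at 12w for 3 of the 18 pericyte genes and 6 of the 24 fibroblast genes. By the same test 0.871% of all genes had a larger value at 12w. Of 13 genes linked to quiescent stellate cells 9 were tested, and 6 were upregulated at 12w, from Hand2 (2.87, adjusted p = 0.00479) and Ngfr (2.24, adjusted p = 0.0127) to Nes (0.91, adjusted p = 0.0257) and Ecm1 (0.76, adjusted p = 0.0131). The 13 genes summed to 116 to 156 CPM in Wt and 147 to 213 CPM in Tg7 islets at 2w. Their sums at 12w were 62.9 to 78.8 CPM in Wt and 162 to 187 CPM in Tg7 islets. At 2w Reln (2.27, adjusted p = 0.00680) and Bambi (0.69, adjusted p = 0.0361) were upregulated, and the count without the lymphoid library was also 2. Bambi was lost with any one of 6 other libraries left out (adjusted p from 0.0553 to 0.133). At 12w Nes was lost without Tg7 replicate 2 or 3 or Wt replicate 1 or 4 (0.0565 to 0.0885), and Ngfr (0.0505) and Ecm1 (0.0661) without Tg7 replicate 3. The retinol esterifying enzyme Lrat, which defines quiescent stellate cells, averaged 0.118 to 0.521 CPM over the groups and Gfap 0.102 to 0.453 CPM, and both failed the filter.

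Within the families of the 9 genes, changes were less uniform. Of 13 further small leucine-rich proteoglycans and relatives 6 were tested, and 3 were upregulated at 12w: Ogn (2.24, adjusted p = 0.0372), Podn (1.42, adjusted p = 0.0456) and Ecm2 (1.39, adjusted p = 0.0131). Podn was also upregulated at 2w (1.67, adjusted p = 0.0379). Of 6 other fibulins, all tested, Fbln1 (2.76, adjusted p = 8.02e-05) and Efemp2 (0.63, adjusted p = 0.0113) were upregulated at 12w, and Efemp1 (1.62, adjusted p = 0.0447) and Efemp2 (0.60, adjusted p = 0.0314) at 2w. Without the lymphoid library 1 fibulin, 1 proteoglycan and no PDGF ligand or R4 gene was called at 2w. Several of these calls were close to the threshold. Ogn was lost with 7 libraries left out in turn (adjusted p up to 0.130), Podn with 9 at 12w (0.141) and 8 at 2w (0.164), Efemp1 with 10 (0.174), and Efemp2 with 7 at 2w (0.120) and 2 at 12w (0.0557). Of the PDGF ligands, Pdgfb, the endothelial ligand of PDGFRβ, was upregulated at 12w (0.87, SE 0.16, adjusted p = 0.00129), from a mean of 10.2 CPM in Wt to 18.8 CPM in Tg7 islets. Pdgfa was downregulated (−0.54, SE 0.17, adjusted p = 0.0365), from 123 to 84.6 CPM, a call that was lost with any one of 8 libraries left out, the lymphoid one among them (adjusted p from 0.0533 to 0.142). The Pdgfb call was never lost in this way. Pdgfc (1.36, adjusted p = 0.0510) and Pdgfd (0.15, adjusted p = 0.821) did not pass. At 2w no ligand was called, with log2 fold changes of −0.15 for Pdgfa, 0.18 for Pdgfb, 0.37 for Pdgfc and 0.56 for Pdgfd. Of 9 relatives of Rgs5 in the R4 family 6 were tested. At 12w Rgs16 (1.73, adjusted p = 0.00424) and Rgs4 (0.53, adjusted p = 0.0340) were upregulated and Rgs3 (−2.11, adjusted p = 8.68e-05) and Rgs2 (−1.22, adjusted p = 5.56e-04) downregulated, and none was called at 2w. The Rgs4 call was lost without Tg7 replicate 1 or 3 or Wt replicate 1 or 4 of 12w (adjusted p from 0.0558 to 0.174).

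Endothelial markers shared the Tg7 increase at 12w and the fall with age in Wt islets, but had no call at 2w. Of 12 endothelial genes, 10 were upregulated in 12w Tg7 islets and none at 2w, and all 12 decreased from 2w to 12w in Wt islets. Their summed level was 1195 to 1489 CPM in 2w Wt, 1347 to 1443 CPM in 2w Tg7, 511 to 636 CPM for 12w Wt and 1034 to 1083 CPM for 12w Tg7. The 9 genes summed to 261 to 329, 318 to 423, 93.8 to 149 and 286 to 314 CPM in the same order. As a share of the endothelial sum, Pdgfrb was 5.47% to 6.00% in 2w Wt and 5.53% to 6.66% in 2w Tg7 islets. It was 1.65% to 2.32% for Wt and 3.55% to 3.77% for Tg7 at 12w, so the 12w groups did not overlap on this scale either. Over all 21 pericyte and mural genes the share was 34.6% to 41.0% for Wt and 35.7% to 38.0% for Tg7 at 12w, and these did overlap. At 2w the mural share was 24.3% to 25.3% for Wt and 27.0% to 30.1% for Tg7, without overlap. The share of the 9 genes overlapped at 2w, with 21.3% to 23.4% for Wt and 22.1% to 31.4% for Tg7. At 12w it was separate, with 18.3% to 23.4% for Wt and 26.4% to 30.3% for Tg7. The summed acinar markers were at 17.6 to 19.3 CPM in Wt and 26.4 to 33.1 CPM in Tg7 islets at 2w. At 12w they were at 21.6 to 26.8 CPM in Wt and 16.5 to 17.9 CPM in Tg7 islets. Of 8 acinar genes tested, 1 was upregulated at 2w and 1 downregulated at 12w. Of 9 Schwann cell genes tested, 3 were upregulated and 1 downregulated at 12w, with summed levels of 134 to 141 CPM in Tg7 and 157 to 184 CPM in Wt. Of 5 erythroid genes tested, 2 were upregulated (40.4 to 57.9 CPM against 8.93 to 33.9 CPM). Of 7 mesothelial genes 3 were tested, and 1 was downregulated at 12w. The log2 fold changes of the 3 were −5.41, −0.67 and −0.50. The sum over the 7 was 5.03 to 7.61 CPM in Tg7 and 46.4 to 61.6 CPM in Wt islets. The part of these cell types in the results was not tested.

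**Figure D5:**
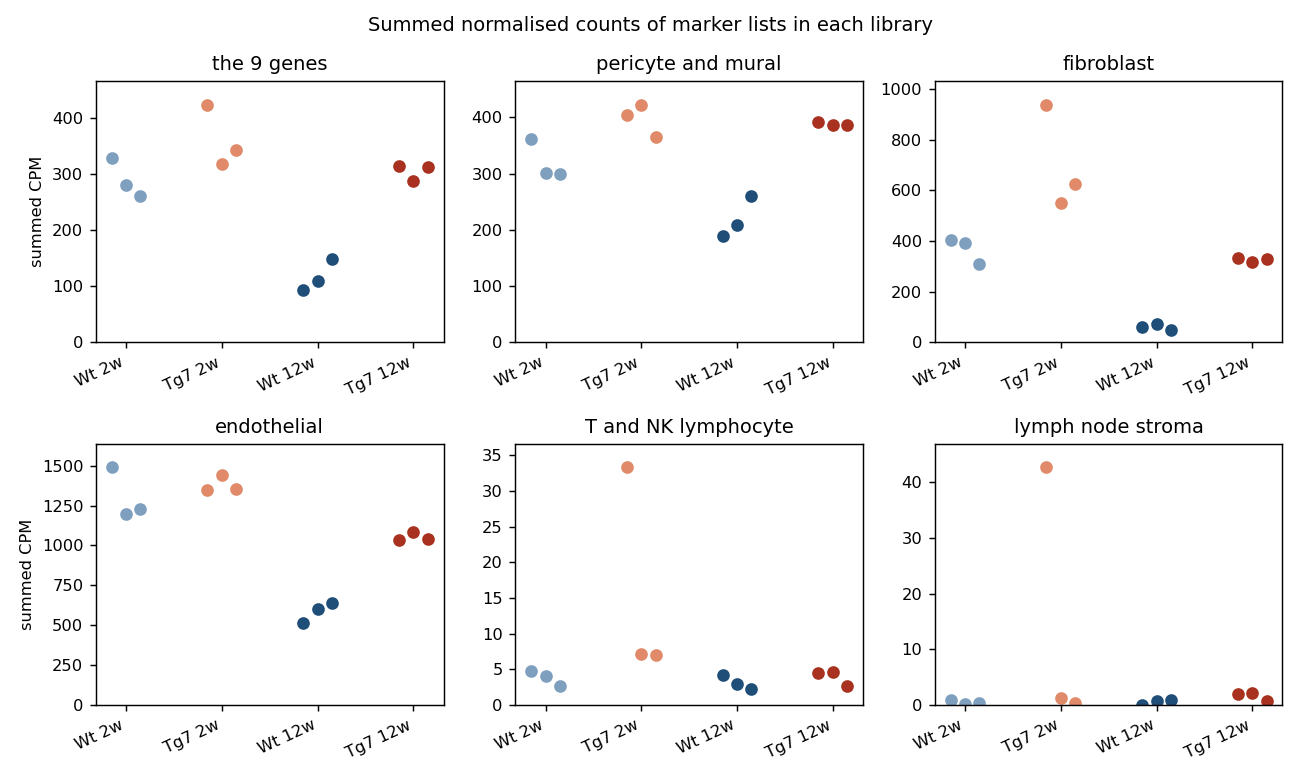
Summed CPM of the 9 genes and of 5 marker lists in each of the 12 libraries, on linear axes that start at 0; points are libraries in order of replicate number, coloured by group. The 12w Wt libraries are the lowest for the 9 genes and for the pericyte, fibroblast and endothelial lists. The first 2w Tg7 library stands alone in the lymphocyte and lymph node panels, and most of its lymph node sum is Madcam1. It is also the highest in the fibroblast panel, at 938 CPM against 46.5 to 624 CPM in the others.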

How the data were processed

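Islet RNA of both genotypes at each age had been sequenced as paired-end reads (NEB Ultra II kit, HiSeq2500). The authors trimmed the reads with Trimmomatic, aligned them to mm9 (NCBIM37) with TopHat2 2.0.11 and counted them per Ensembl gene with featureCounts. The strand setting was not given in the sources used. The deposited table holds raw counts per gene for 12 libraries, 3 in each of 4 groups, and every column was used.

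Genes were filtered with filterByExpr (minimum count 10, minimum total 15) and scaled with TMM factors. Group means were fitted in 1 model with edgeR 4.0.16 (glmQLFit, glmQLFTest; R 4.3.3), with Benjamini-Hochberg adjustment over 15961 genes. The study used DESeq2, which was an alternative here (1.42.0). The other alternatives were upper-quartile factors, library sizes without factors, leaving all genes in, a filter of 50 counts in 3 libraries, fits on each age alone, the replicate number as a block and each library left out. The lists without a library, and 12w Tg7 against 2w Wt islets, were added after the values were seen. SE is the log2 fold change over the square root of F. Log2 CPM for correlations used a prior count of 2. Exon lengths, positions and 3′ UTRs came from GENCODE vM1 (mm9), promoters and microRNAs from RefSeq. Scripts were tested on simulated counts. Rows of the miR-7 genes Mir7-1, Mir7-2 and Mir7b had few reads and do not measure the mature microRNA, so the table does not check the transgene. Same-number libraries did not deviate together (r from −0.167 to −0.0112).

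The 9 genes and all lists were chosen with earlier results of these data known, and no list is tested. Genes named from a list were the 2 highest and 2 lowest called at each age (PDGF ligands whole), the neighbours of Lum and Dcn, and the 10 genes most like the profile. Markers of other cell types are given by list, apart from Madcam1, Cxcl13, Ccl19, Ccl21a, Lrat and Gfap, which were named after their values were seen.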

Additional observations from a re-analysis of the deposited data

Results flagged for a closer look

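The effect of the transgene differed between 2w and 12w for 3 of the 9 genes, by edgeR's quasi-likelihood test of the difference itself. For Pdgfrb the difference was 1.60 on the log2 scale (SE 0.21, adjusted p = 0.00176), between 0.14 at 2w and 1.74 at 12w, and every 12w Tg7 library lay above every 12w Wt library. For Fbln2 it was 2.14 (SE 0.38, adjusted p = 0.0145), between 0.60 and 2.73. For Cspg4 it was 1.40 (SE 0.31, adjusted p = 0.0437), between −0.09 and 1.32, and this one passed the threshold with 2 of the 12 libraries left out and missed it with the other 10 (adjusted p from 0.0552 to 0.131). All 3 genes were lower in 12w than in 2w Wt islets, and the tested difference shares those libraries.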

How the results depend on the processing

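The counts of genes called in Tg7 against Wt islets at 12w (8), in Wt islets with age (6), in Tg7 islets with age (4) and in 12w Tg7 against 2w Wt islets (5) stayed within 1.5 times under every alternative run. With a library left out they ranged from 7 to 8, 5 to 7, 3 to 5 and 5 to 5. The 2w count of 5 ranged from 1 to 5 with a library left out (1 without Tg7 2w replicate 1 or Wt 2w replicate 3, 3 without Wt 2w replicate 1 or 2) and from 5 to 6 under the other alternatives. The count of 3 for the difference between ages was 6 with library size alone, 6 without a filter, 6 with the replicate block and 6 with DESeq2 on all libraries, and ranged from 2 to 5 with a library left out (5 without Wt 12w replicate 4). Over all genes tested, library size alone changed the share of called genes that were higher. At 12w 5198 of 5558 were higher against 1989 of 3772 with TMM factors (2418 of 3735 with upper-quartile factors), at 2w 1670 of 1987 against 969 of 1695, for the difference 323 of 347 against 139 of 188, with age in Wt 325 of 4120 against 1261 of 2524, with age in Tg7 645 of 1706 against 1120 of 2079, and in 12w Tg7 against 2w Wt islets 2049 of 3104 against 2148 of 3993. The difference was called for 420 genes without a filter, 502 with the replicate block and 566 with DESeq2, the 2w effect for 2630 with the block and 2985 with DESeq2 on that age, and the Wt age effect for 3817 with the block.

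Signs turned for values that had not passed the test. With library size alone the log2 fold change at 2w was 0.0092 for Rgs5 and 0.083 for Cspg4, and Rgs5 in 12w Tg7 against 2w Wt islets was 0.013, or 0.0063 with upper-quartile factors. With a library left out, Rgs5 at 2w ranged from −0.28 to 0.0070, Cspg4 at 2w from −0.21 to 0.057, Rgs5 in 12w Tg7 against 2w Wt islets from −0.15 to 0.13, Lum with age in Tg7 islets from −0.076 to 0.95 and the Pdgfra difference from −0.74 to 0.91. The cause was not tested. Library size alone moved the median over all genes tested from 0.03 to 0.19 at 2w and from −0.01 to 0.43 at 12w, and Rgs5 at 12w from 0.49 to 0.90.

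The replicate block could use 1 number less in 12w Wt islets, since replicate 4 has no partner and dropped out. With it Pdgfra at 12w was 2.02 (adjusted p = 0.0996) and Rgs5 at 12w 0.90 (adjusted p = 0.00436), and Rgs5 and Thy1 were called with age, in Wt and in Tg7 islets. The numbers name the libraries and do not pair them. On the ages fitted alone, Pdgfra at 2w had an adjusted p of 0.0524 and Fbln2 one of 0.0495. Of the values of single genes, 331 kept their direction and side of the threshold under the other alternatives, 23 newly passed it, 2 missed it and 4 turned. With a library left out 593 kept both, 10 newly passed, 39 missed and 6 turned. Groups of 3 pools, and at most 11 reads of Pdgfra and 9 of Lum in a 12w Wt library, limit the precision of these folds.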
